A study of Sus scrofa with 5 samples.

Results

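ssc-miR-21 is the pig form of miR-21, a miRNA that is abundant in most cultured mammalian cells. It was found by its name in the table of reported miRNAs, where it held 1 row, on the precursor ssc-mir-21, and was 1 of 411 mature names. Reads were found for 327 of the names. The study sequenced small RNA of 4 pig cell types in 5 libraries, to list the miRNAs of pluripotent and of differentiated cells. BL_1 and BL_2 came from pools of blastocysts (BLs) on day 7 after parthenogenetic activation, in which an oocyte develops without sperm. Embryonic stem cell-like (ES-like) cells were a line derived from expanded blastocysts of day 7, and they grew on mitomycin-treated mouse embryonic fibroblasts with stem cell factor and basic fibroblast growth factor. Porcine embryoid bodies (PEBs) were aggregates of the same line in hanging drops, off the feeder cells and without these factors. Pig fetal fibroblasts (PFFs) were grown from early fetuses of mixed breed after removal of the head, limbs and internal organs. No genetic change was described for any of them. Only BLs were sequenced in replicate (2 libraries). A difference among the remaining cell types, with 1 library apiece, has no replicate check.

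miR-21 is processed from a hairpin inside a long primary transcript, and its mature strand guides Argonaute proteins to messenger RNAs with a matching site, which are then translated less and degraded. Among its known targets are PDCD4, a tumour suppressor, and SPRY1, an inhibitor of the MAP kinase pathway. Its transcription responds to AP-1 and STAT3 and its processing to TGF-beta and BMP signals, and it is known for its high level in fibroblasts, fibrotic tissue and tumours. No other mature name shared its precursor in the table, so its other arm was not analysed here. A single precursor row also means that its count was not summed over several hairpins, unlike that of 66 other names.

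Columns were assigned to cell types by their headers, which match the sample titles. The read summary in the study's supplement lists the totals of the ES-like and PFF columns under the opposite cell type, while its normalized values follow the headers, within 1% for 100% of the miRNAs with at least 10 reads in each column. If that summary were right and the headers wrong, the values of the ES-like line and PFFs below would be exchanged. Mature miRNA reads numbered from 113743 in BL_1 to 27071931 in PFFs. Levels are given as RPM, the reads of a miRNA per 1000000 mature miRNA reads of the library. The 14 mesenchymal and fibroblast-associated miRNAs summed to 285111 RPM in PFFs, 248364 in PEBs, 110576 in the ES-like line, 11667 in BL_1 and 8934 in BL_2. This sum holds both ssc-miR-199a-3p and ssc-miR-199b-3p, whose nearly equal counts may be the same reads, and with 1 of them left out it was 232593 RPM in PFFs, 167943 in PEBs and 84060 in the ES-like line. The 11 miRNAs of pluripotent and early embryonic clusters summed to 381237 RPM in BL_1, 348004 in BL_2, 152019 in the ES-like line, 78600 in PEBs and 9921 in PFFs. The 4 liver and endoderm miRNAs, which include miR-122, summed to 107997 RPM in the ES-like line and 57390 in PEBs but to 18.5 in PFFs. ssc-miR-371-5p, the leading miRNA of both BL libraries, stood at 30.9 RPM in the ES-like line. The 6 blood cell miRNAs stood at 123 RPM or less in every library.

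miR-21 was found in all 5 libraries and was highest in PFFs. It had 4388 reads in BL_1, 194698 in BL_2, 986772 in the ES-like line, 2991568 in PEBs and 14153426 in PFFs. As a share of mature miRNA reads this was 3.86% in BL_1 (95% Wilson interval 3.75 to 3.97%), 7.00% in BL_2 (6.97 to 7.03%), 15.5% in the ES-like line (15.5 to 15.5%), 18.9% in PEBs (18.9 to 18.9%) and 52.3% in PFFs (52.3 to 52.3%). In PFFs, then, miR-21 had more reads than the other 326 miRNAs together. Intervals cover counting error only, and may be too narrow even for that, since reads of amplified libraries are not independent molecules. In these bulk libraries, fewer cells of a type and less of the miRNA in each cell cannot be told apart.

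**Figure D1:**
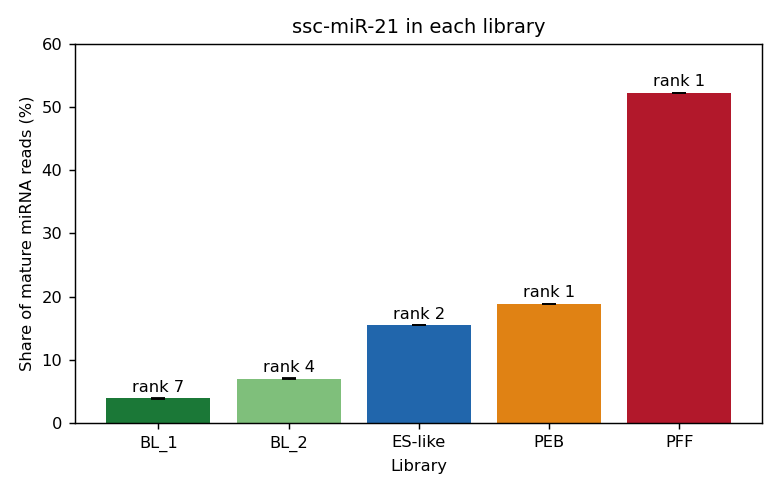
Share of mature miRNA reads taken by ssc-miR-21 (vertical axis, in percent) in each of the 5 libraries, with its rank above each bar and 95% Wilson intervals as thin error bars. The share goes from 3.86% in BL_1 to 52.3% in PFFs, and the ranks run from 7 to 1.

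In RPM, miR-21 stood at 38578 in BL_1, 69981 in BL_2, 154848 in the ES-like line, 188743 in PEBs and 522808 in PFFs. The mean of BLs was 54280 ± 22205 RPM (SD, n = 2), and BL_2 was 1.81 times BL_1. That gap between replicates was wide for these libraries. Among the 54 miRNAs with at least 100 reads in both BL libraries, the median difference was 1.26-fold, and 8 of them differed by more than miR-21 did. The 1.81-fold gap is the only spread between replicates in the data. Set against it, the 1.22-fold higher level of PEBs than the ES-like line was smaller, so these neighbours in the order could not be separated in RPM. The ES-like line was 4.01 times BL_1 and 2.21 times BL_2, and both ratios lay above 1.81. That order did not hold on every scale. With TMM the ES-like line was 1.36 times BL_2, below the gap of 1.92 between the BL libraries on that scale, and PEBs were 2.00 times the ES-like line. With upper-quartile scaling PEBs were 1.54 times the ES-like line, above a gap of 1.27. With DESeq2's size factors the ratio to BL_2 was also below the gap, which was then 1.64. PFFs were 2.77 times PEBs, 3.38 times the ES-like line and 9.63 times the mean of BLs, or 13.6 times BL_1 and 7.47 times BL_2.

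Set beside other miRNAs on the same scale, the share of miRNAs more than 2-fold higher differed between the pairs of cell types. The comparisons of PFFs all use the same PFF library. Of 304 other miRNAs with at least 10 reads in any library, 50 (16.4%) were more than 2-fold higher in PFFs than in PEBs, 53 (17.4%) more than 2-fold higher in PFFs than in the ES-like line and 121 (39.8%) more than 2-fold higher in PFFs than in BLs. More than 2-fold higher in the ES-like line than in BLs were 163 (53.6%), while miR-21 was 2.85 times as high there. Shares against BLs also carry the low depth of BL_1, where a miRNA with no read may stand at up to 26.4 RPM. With BL_2 alone the 121 higher in PFFs became 120, and with BL_1 alone 146. In PEBs against the ES-like line, where miR-21 stayed within 2-fold, 63 others (20.7%) were more than 2-fold higher. The study listed miRNAs more than 2-fold above every other cell type on its own normalized levels. With that rule applied to RPM and at least 10 reads in a library, miR-21 was 1 of 22 miRNAs of PFFs among 305 tested (7.21%). It passed no such rule for another cell type.

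The rank of miR-21 among the reported miRNAs followed its share. It was the seventh miRNA of BL_1, the fourth of BL_2, the second of the ES-like line and the first of PEBs and PFFs. These ranks use counts summed over precursors, which may hold some reads more than once. With only the highest precursor count of each name, miR-21 ranked 5 in BL_1 and 2 in BL_2. With the summed counts, ssc-miR-371-5p, an embryonic miRNA of the miR-371/373 cluster, led both BL libraries, with 324635 RPM in BL_1 and 296148 in BL_2. ssc-miR-378 followed with 142954 and 128503, and ssc-miR-7 with 67591 and 92756. In BL_1, ssc-miR-92a, ssc-miR-30d and ssc-miR-320 also stood above miR-21, and ssc-miR-320, the closest, had 41260 RPM. In BL_2, miR-21 was 1.46 times ssc-miR-92a, the next below. In the ES-like line it stood just under ssc-miR-148a-3p (160140 RPM), at 0.967 times its reads, and 1.53 times over ssc-miR-122 (101004 RPM), the miRNA that dominates liver. A lead of its own appeared in PEBs, where miR-21 was 2.35 times the next miRNA, ssc-miR-199b-3p. In PFFs it was 5.15 times ssc-miR-143-3p, a miRNA of smooth muscle and fibroblasts, which had 101507 RPM.

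**Figure D2:**
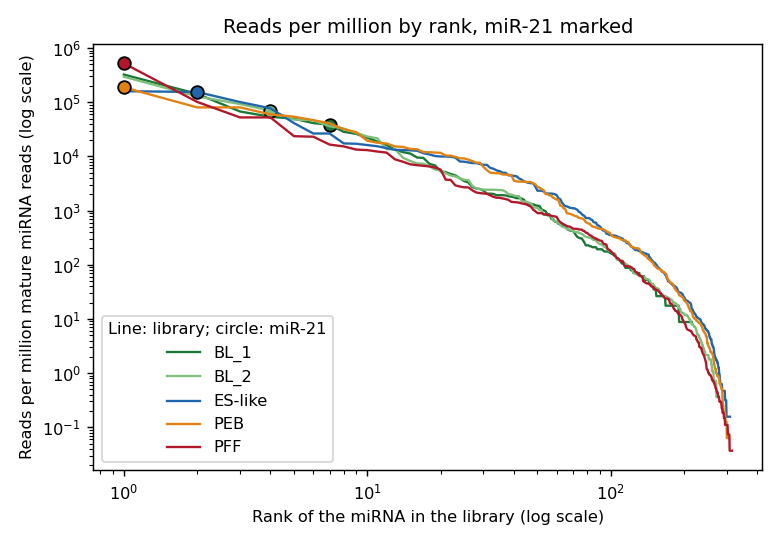
RPM of each miRNA (vertical axis, log scale) against its rank in the library (horizontal axis, log scale), 1 line per library, with miR-21 as a circle. miR-21 sits among the 7 most abundant miRNAs of every library, and the PFF line drops from 522808 at rank 1 to 101507 at rank 2.

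The spread of reads over miRNAs was described by the effective number of miRNAs, the exponential of the Shannon entropy, which equals the number of miRNAs when all have the same share. It was 16.1 in BL_1, 31.0 in the ES-like line, 33.2 in PEBs and 9.66 in PFFs. PFFs had reads of 315 miRNAs, more than any other library, but the most uneven spread. Leaving miR-21 out raised the effective number of PFFs to 27.2, against 35.0 in the ES-like line and 41.3 in PEBs. In BL_1 the same removal gave 15.2, and in BL_2 the number dropped by 5.77%. PFFs without miR-21 thus lay between the BLs and the other cultured cells. Thinned to the 113743 reads of BL_1, PFFs had an effective number of 9.64 and a miR-21 share of 52.5%. The 10 most abundant miRNAs held 83.4% of the reads of PFFs with miR-21 and 67.9% of the remainder without it.

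Because RPM divides by the whole library, each read of miR-21 takes room from all other miRNAs. When miR-21 was left out of the total, the RPM of every other miRNA was multiplied by 2.10 in PFFs, 1.23 in PEBs, 1.18 in the ES-like line, 1.08 in BL_2 and 1.04 in BL_1. The ratio of any other miRNA between PFFs and PEBs was thereby multiplied by 1.70, and that between PFFs and the ES-like line by 1.77. Depth itself was not short in PFFs. After miR-21, 12918505 reads were left there, close to the 12858386 of PEBs and above the 5385728 of the ES-like line, 2587452 of BL_2 and 109355 of BL_1.

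The calls on the other miRNAs moved with the total that was used. In PFFs against PEBs, 135 of the 304 others (44.4%) were more than 2-fold lower with miR-21 in the total and 103 (33.9%) without it, while 50 became 83 higher (27.3%). In PFFs against the ES-like line, 160 lower (52.6%) became 113 (37.2%) and 53 higher became 88 (28.9%). In PFFs against BLs, 112 lower (36.8%) became 81 (26.6%) and 121 higher became 151 (49.7%). The call thus changed for 65 miRNAs against PEBs, 82 against the ES-like line and 61 against BLs, from 20.1 to 27.0% of those tested. By construction all moved upward in PFFs. The median log2 ratio over the 304 miRNAs, with 1 RPM added to each value, moved from -0.61 to 0.00 against PEBs, from -0.93 to -0.25 against the ES-like line and from 0.00 to 0.81 against BLs. For 52 miRNAs against PEBs, 38 against the ES-like line and 39 against BLs, PFFs changed from the lower to the higher library.

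**Figure D3:**
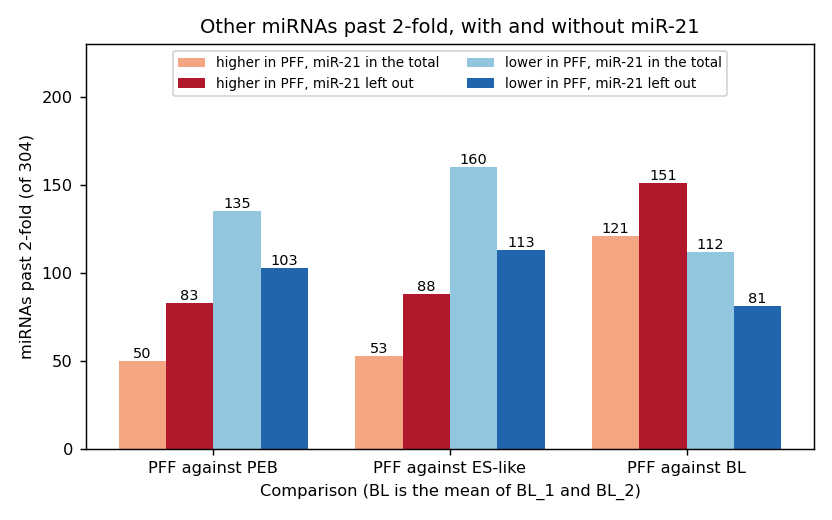
Number of the 304 other miRNAs more than 2-fold higher or lower in PFFs (vertical axis) than in PEBs, the ES-like line and BLs, with miR-21 in the total (pale bars) and left out (dark bars). Leaving miR-21 out raises each count of higher miRNAs and reduces each count of lower ones, as from 160 to 113 against the ES-like line.

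Among the miRNAs of highest mean level whose call changed were members of known families. ssc-miR-199a-3p and ssc-miR-199b-3p, made in mesenchymal cells, had nearly equal counts in every library, and the files do not show if they were assigned the same reads. Their ratio of PFFs to the ES-like line was 1.98 with miR-21 in the total and 3.51 without it. ssc-miR-7, a miRNA known from neurons and endocrine cells, stood at 6723 RPM in PFFs and 15411 in the ES-like line, a ratio of 0.436 that became 0.773. Against PEBs, ssc-miR-7 went from 1.20 to 2.05 times. ssc-let-7f, a member of the let-7 family of differentiated cells, stood at 16557 RPM in PFFs and 40919 in PEBs, and its ratio of 0.405 became 0.688. ssc-miR-371-5p also crossed the threshold against PEBs, from 0.366 to 0.622 times, on 5 reads in PFFs and 8 in PEBs. Against BLs, ssc-miR-103, a broadly expressed miRNA linked to metabolism, went from 0.396 to 0.783 times, ssc-let-7a from 1.78 to 3.55 times and ssc-miR-22-3p, found in muscle and heart among other tissues, from 1.25 to 2.48 times.

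The lists of the 2-fold rule shifted in the same way. With miR-21 in the total, 22 miRNAs passed for PFFs, 22 for PEBs, 38 for the ES-like line and 55 for BLs. Without it, 41 passed for PFFs, 18 for PEBs, 27 for the ES-like line and 41 for BLs. The 41 of PFFs held all 22 of the list with miR-21 in the total, and the lists of the ES-like line and BLs lost members and gained none. miR-21 itself stayed in the list of PFFs.

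The ratio of miR-21 between libraries depends on the scale, by the same factor as that of every other miRNA. With only the reads of the other miRNAs as the total of the RPM, miR-21 stood at 40126 in BL_1, 75247 in BL_2, 183220 in the ES-like line, 232655 in PEBs and 1095590 in PFFs. On this scale, PFFs were 4.71 times PEBs, 5.98 times the ES-like line and 19.0 times BLs. With edgeR's TMM factors, which scale libraries by the bulk of their miRNAs, the ratios were 4.68, 9.38 and 16.7, and with DESeq2's size factors they were 5.56, 6.92 and 12.9. Against the geometric mean of the 115 other miRNAs with at least 10 reads in every library, miR-21 was 44.7 times in BL_1, 79.6 in BL_2, 164 in the ES-like line, 200.4 in PEBs and 1492 in PFFs. PFFs were highest and PEBs above the ES-like line on each of these scales. The lower end of the order held less well. With upper-quartile scaling the ES-like line was 1.11 times the mean of BLs, and BL_2 stood above it, at 87513 against 86935 scaled reads.

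**Figure D4:**
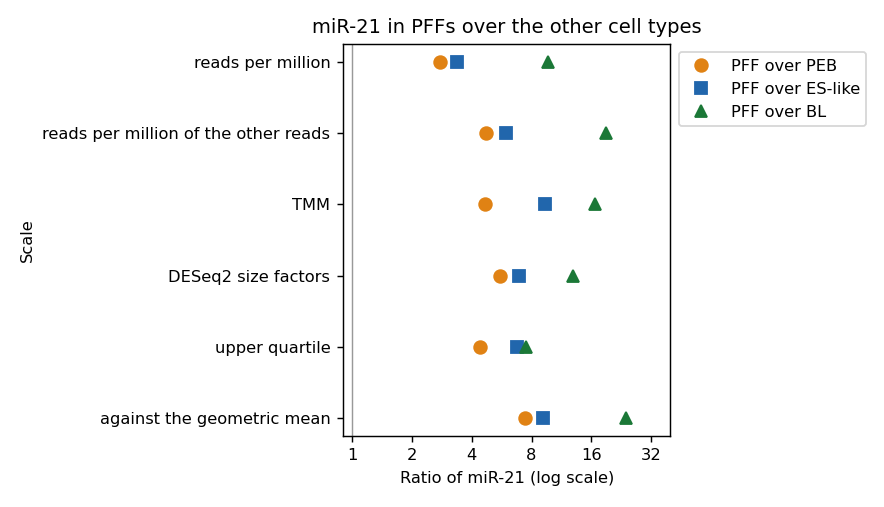
Ratio of miR-21 in PFFs to that in PEBs, the ES-like line and the mean of BLs (horizontal axis, log scale) under 6 scales between libraries (vertical axis). RPM gives the smallest ratios to PEBs and the ES-like line, 2.77 and 3.38, and all points lie above 1.

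Ratios of 2 miRNAs within a library are free of any scaling, and they show against which miRNAs miR-21 was high. For each read of ssc-miR-371-5p there were 0.119 reads of miR-21 in BL_1 and 0.236 in BL_2, but 5009 in the ES-like line, where ssc-miR-371-5p had 197 reads. Against ssc-miR-148a-3p there were 1.74 and 2.14 reads in BL_1 and BL_2, 0.967 in the ES-like line, 3.16 in PEBs and 34.1 in PFFs. This pair came closest to equal in the ES-like line and lay farthest apart in PFFs. Against ssc-miR-199a-3p there were 199 in BL_1 and 574 in BL_2, where that miRNA had 22 and 339 reads, and 5.84 in the ES-like line, 2.35 in PEBs and 9.96 in PFFs. Against ssc-miR-143-3p there were 2194 in BL_1 and 1159 in BL_2, where that miRNA had 2 and 168 reads. In the cultured cells this ratio was lowest in PFFs, with 11.7 in the ES-like line, 10.5 in PEBs and 5.15 in PFFs. miR-143-3p was the only 1 of the miRNAs ranked in the top 3 of any library for which the ratio to miR-21 was lowest in PFFs.

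The pluripotent and differentiated libraries were compared as the study grouped them, with BL_1, BL_2 and the ES-like line against PEBs and PFFs. miR-21 was higher in 2 of 2 differentiated libraries than in any of the 3 pluripotent ones, at 2.88 on the log2 scale (standard error 1.28), and did not pass the test (adjusted p = 0.405, edgeR's quasi-likelihood test with Benjamini-Hochberg adjustment over 295 miRNAs). No miRNA passed (0% of 295), and 30 had an unadjusted p under 0.05. DESeq2 called 16 miRNAs and limma-voom 0, and miR-21 passed in neither. Without the PFF library the log2 fold change was 0.85 and without PEBs it was 3.60. Embryos were then compared with the cultured cells, BL_1 and BL_2 against the ES-like line, PEBs and PFFs. miR-21 was higher in 3 of 3 cultured libraries, at 2.75 on the log2 scale (standard error 1.31), and did not pass the test (edgeR's quasi-likelihood test, adjusted p = 0.168). 35 of 295 miRNAs (11.9%) passed that test, 16 higher and 19 lower in cultured cells. DESeq2 called 100, 64 higher and 36 lower, and limma-voom 22, 6 higher and 16 lower, with miR-21 in neither. The edgeR count of 35 depended on the cultured libraries kept, with 1 call without PEBs, 25 without the ES-like line and 116 without PFFs. Leaving out BL_1 or BL_2 leaves 1 embryo library, so only the cultured cells then give the spread, and no count is read from those fits. Without PFFs the log2 fold change of miR-21 was 0.80, and without BL_1 it was 1.54. Every group but that of the BL pair held libraries of different cell types, so its spread includes these differences, and PEBs came from the ES-like line.

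The pattern of miR-21 over the 5 libraries was then set against that of 115 other miRNAs with at least 10 reads in each, by Pearson's r on log2(RPM + 1). With only 5 points that share libraries and totals, r is a description. The median r was -0.17, and 4 miRNAs had an r over 0.9. The closest was ssc-miR-23a (r = 0.953), a miRNA of the miR-23/27/24 clusters, with 176 RPM in BL_1, 324 in BL_2, 335 in the ES-like line, 705 in PEBs and 1679 in PFFs. ssc-miR-24-3p, of the same clusters, followed (r = 0.928), with 1697, 1847, 4448, 10332 and 11770 RPM in the same order. These 2 were the only ones of the 115 to rank the 5 libraries as miR-21 did. ssc-miR-27b-3p (r = 0.907), again of these clusters, went from 3314 RPM in BL_1 to 13583 in PEBs and 13395 in PFFs. ssc-miR-99a (r = 0.905) and ssc-miR-181b (r = 0.887) had a like shape. The step from PEBs to PFFs was smaller in all 5 than in miR-21. PFFs were 2.38 times PEBs for ssc-miR-23a but between 0.926 and 1.14 times for the other 4, against 2.77 times for miR-21.

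**Figure D5:**
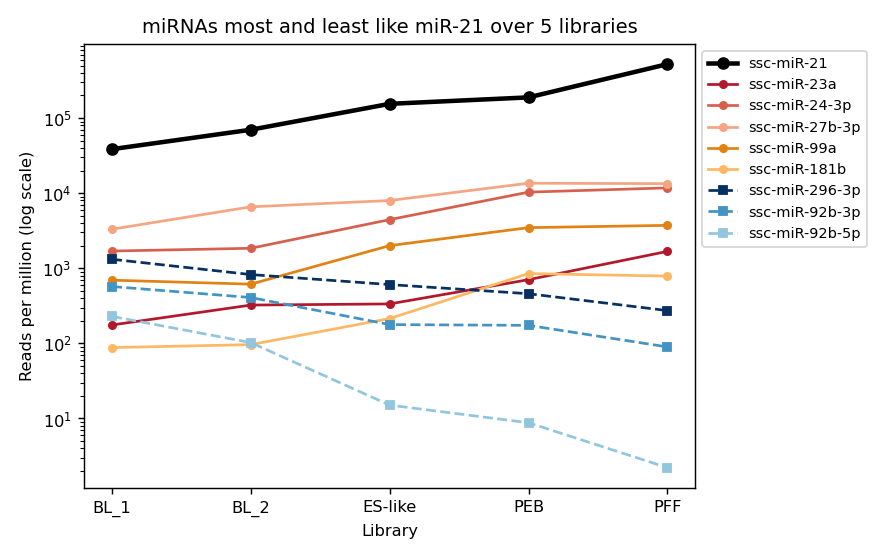
RPM (vertical axis, log scale) of ssc-miR-21, of the 5 miRNAs with the highest Pearson r to it and of the 3 with the lowest (dashed) in the 5 libraries. ssc-miR-23a and ssc-miR-24-3p order the libraries as miR-21 does, and the dashed lines slope down from BL_1 to PFFs.

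The 3 miRNAs with the lowest r ranked the 5 libraries in the reverse of the order of miR-21. ssc-miR-296-3p had an r of -0.993, with 1319 RPM in BL_1, 825 in BL_2, 607 in the ES-like line, 459 in PEBs and 274 in PFFs. ssc-miR-92b-3p (r = -0.992) and ssc-miR-92b-5p (r = -0.986) are the arms of 1 hairpin. ssc-miR-92b-3p went from 571 RPM in BL_1 to 89.7 in PFFs, and ssc-miR-92b-5p from 229 to 2.22. An r below -0.9 was found for 19 of the 115 miRNAs, and an r over 0 for 47. The reads of miR-21 are part of the total by which all of these levels were divided, and the part of that in the count was not tested.

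Mesenchymal and fibroblast-associated miRNAs were taken as a list of 14, all of which passed the filter on reads. In RPM, 5 of the 14 were more than 2-fold higher in PFFs than in PEBs and none lower, with a median log2 ratio of 0.28 against -0.61 over all 304 others. Those higher were ssc-miR-143-3p (5.67 times), ssc-miR-143-5p (10.8), ssc-miR-145-5p (8.22), ssc-miR-199b-5p (2.75) and ssc-miR-100 (6.47). ssc-miR-145-5p, a regulator of smooth muscle fate, comes from the same transcript as miR-143. The share over all others was 16.4%. Against the ES-like line 6 were higher (17.4% of all others), and against BLs 13 were (39.8%). Without miR-21 in the total these counts became 7, 13 and 14, where 27.3%, 28.9% and 49.7% of all others were higher. The list's medians were then 1.05, 1.81 and 9.24, against 0.00, -0.25 and 0.81 over all others. Against PEBs, 6 of the 14 changed from lower to higher in PFFs, as did 52 of the 304 others under the same shift. Among the 6 were ssc-miR-214 (0.667 to 1.13 times) and ssc-miR-125b (0.754 to 1.28 times). miR-21 alone had 1.83 times the summed RPM of the 14 in PFFs, 0.760 times in PEBs, 1.40 times in the ES-like line, 3.31 times in BL_1 and 7.83 times in BL_2. With ssc-miR-199b-3p left out of the sum, the value in PEBs was 1.12 times, so whether miR-21 lay below the sum there depended on that pair. In BLs the members differed. ssc-miR-22-3p, at 6805 and 4272 RPM in BL_1 and BL_2, ssc-miR-100, at 2708 and 2567, and ssc-miR-125b, at 967 and 1117, were well present. ssc-miR-143-3p had 2 reads in BL_1 and 168 in BL_2, ssc-miR-143-5p had 0 in both, and ssc-miR-145-5p, ssc-miR-199b-5p and ssc-miR-214 had 0 in BL_1. In the ES-like line they summed to 110576 RPM, and that line grew on mouse fibroblasts. Mature miR-21 is conserved between mouse and pig, and the part of feeder cells in the reads of the ES-like line was not tested.

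miRNAs with reported roles in growth, stress and inflammation lay on both sides of the 2-fold threshold. Of 10, 3 were more than 2-fold higher in PFFs than in PEBs and 3 lower, where 16.4% of all others were higher and 44.4% lower. Against the ES-like line 6 were higher and 4 lower (17.4% and 52.6% of all others), and against BLs 7 were higher and 2 lower (39.8% and 36.8%). Without miR-21 in the total, 5 were higher and 3 lower in PFFs than in PEBs (27.3% and 33.9% of all others). Against the ES-like line the counts stayed as before, where 28.9% of all others were then higher and 37.2% lower. Against BLs they also stayed, where 49.7% were then higher and 26.6% lower. Those higher than in BLs include ssc-miR-31 and ssc-miR-210, with 0 reads in BL_1, where 0 reads allow up to 26.4 RPM. ssc-miR-31 had 7.91 RPM in BL_2 and 23.1 in PFFs, and ssc-miR-210 had 22.3 and 29.4. Nothing is read from the calls of these miRNAs against BLs. In the order of the 5 libraries, ssc-miR-23a, ssc-miR-24-3p, ssc-miR-27a and ssc-miR-155-5p ranked as miR-21 did. The pair ssc-miR-221-3p and ssc-miR-222, which target the cell cycle inhibitor p27, were higher in PFFs than in PEBs at 3.04 and 3.22 times. ssc-miR-146b, induced by NF-kB signalling, went the other way, with 2389 RPM in PEBs and 5.98 in PFFs. ssc-miR-146a-5p had 203 RPM in PEBs and 5.28 in PFFs, and ssc-miR-31 1104 and 23.1. ssc-miR-155-5p, an inflammatory miRNA often named beside miR-21, was at a low level, from 17.6 RPM in BL_1 and 35.9 in BL_2 to 108 in the ES-like line, 156 in PEBs and 279 in PFFs. In BL_1 this was 2 reads.

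miRNAs reported to restrain fibrosis, among them the miR-29 family that targets collagens, were read against the shares over all other miRNAs. Of 12, 8 were more than 2-fold lower in PFFs than in PEBs and 1, ssc-miR-133a-3p, a muscle miRNA, was higher (4.46 times), where 44.4% of the 304 others were lower and 16.4% higher. The median log2 ratio was -1.58 against -0.61 over all others. Without miR-21 in the total, 4 of the 12 were more than 2-fold lower, a share near the 33.9% of all others, with a median of -0.82 against 0.00. ssc-miR-30a-5p had 15023 RPM in PEBs and 1303 in PFFs, and ssc-miR-30d 13744 and 2780. ssc-miR-429, an epithelial miRNA of the miR-200 family, had 1199 RPM in the ES-like line, 718 in PEBs and 0.0739 in PFFs. ssc-miR-29a differed less, with 3177 RPM in PEBs and 1910 in PFFs, a ratio of 0.601 that became 1.02 without miR-21, while in BL_1 and BL_2 it had 8.79 and 17.3 RPM. Against BLs the median log2 ratio of the 12 was -0.68 with miR-21 in the total, where that of all others was 0.00, and 0.31 without it, where that of all others was 0.81.

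Members of the pluripotent and early embryonic clusters were lower in PFFs than in PEBs and the ES-like line with either total. All 11 were more than 2-fold lower in PFFs than in PEBs and than in the ES-like line in RPM, where 44.4% and 52.6% of all others were. Without miR-21 these were 10 and 11, against 33.9% and 37.2% of all others. ssc-miR-371-5p is counted among the 11, but it had only 8 reads in PEBs and 5 in PFFs. It passed the filter on reads through other libraries, so nothing is read from its call against PEBs. Against BLs, 4 were higher and 2 lower with either total, where 39.8% of all others were higher and 36.8% lower with miR-21 in it and 49.7% and 26.6% without. Among the 4, ssc-miR-18b had 0 reads in both BL libraries and 1.15 RPM in PFFs. ssc-miR-19a had 0 reads in BL_1, 18.0 RPM in BL_2 and 31.7 in PFFs. As 0 reads in BL_1 allow up to 26.4 RPM, nothing is read from the calls of ssc-miR-18b and ssc-miR-19a against BLs. The median log2 ratio was -0.31 with miR-21 and 0.66 without it, against 0.00 and 0.81 over all others. ssc-miR-363 had 41258 RPM in the ES-like line and 280.0 in PFFs. miR-21 was 0.101 times the sum of the 11 in BL_1, 0.201 times in BL_2, 1.02 times in the ES-like line, 2.40 times in PEBs and 52.7 times in PFFs. The order of the libraries by this ratio was that of miR-21 itself.

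The weight of miR-21 also showed in the likeness of whole libraries. Across 327 miRNAs, which are not independent replicates, Pearson's r of RPM between the ES-like line and PFFs was 0.613 with miR-21 and 0.268 across the other 326. Between PEBs and PFFs it went from 0.829 to 0.615, and between the ES-like line and PEBs from 0.825 to 0.727. Between BL_2 and PFFs it went from 0.191 to 0.0278, while BL_1 and BL_2 stayed at 0.988 and 0.993. On log2(RPM + 1) the same removal moved r little, as between the ES-like line and PFFs, from 0.806 to 0.801.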

How the data were processed

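The authors trimmed adapters with Cutadapt 1.10, dropping reads too short or lacking one, aligned the rest to Sscrofa10.2 with Bowtie 1.1.1 (versions as in the submitters' processing notes) and assigned them to miRBase names with miRDeep2. They deposited raw counts per mature name and precursor, which were summed per name. How reads that fit several precursors were assigned is not given in the sources used here. The sums of the 66 names with more than 1 precursor row may therefore count some reads more than once. The deposited table of predicted loci served only for alternative totals, with the larger of paired values in a cell. RPM used all mature reads of the reported table, with no filter, and 2-fold calls used miRNAs with at least 10 reads in any library. The test across miRNAs kept names for which 2 or more libraries exceeded 5 reads, and used edgeR 4.0.16 (TMM, quasi-likelihood, Benjamini-Hochberg, threshold 0.05). The alternatives were DESeq2 1.42.0 and limma 3.58.1, other scalings and filters, and leaving out each library, all under R 4.3.3. Nothing in the sources says that libraries came from separate cultures, and p-values then measure only the spread between these libraries.

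On simulated counts of 1000 miRNAs in the pluripotent and differentiated layout, 200 of which differed by 2 on the log2 scale, edgeR recovered 192 with 8 false calls at a dispersion of 0.05 and 0 at a dispersion of 1. With the layout of embryos and cultured cells it recovered 186 with 7 false calls and 0. At a log2 difference of 4 and a dispersion of 1 it recovered 9 and 26 of 200 in these layouts. The common dispersions of the libraries were 1.33 and 0.791.

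miR-21, the lists and the tests were chosen with earlier results of these data known. Other miRNAs were named by rule: the top 3 of each library, the 5 most and 3 least like miR-21 by Pearson's r, the 3 of highest mean RPM whose 2-fold call changed in each comparison, and list members. The sequence of miR-21 was not analysed here. Tables and figures were made in Python 3.11.15 with pandas 2.3.3, numpy 2.4.6 and matplotlib 3.10.9.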

Additional observations from a re-analysis of the deposited data

How the results depend on the processing

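The level of miR-21 depended on the total it was divided by. With reads of predicted loci in the total, the RPM was 33511 in BLs, 66536 in the ES-like line, 150390 in PEBs and 521566 in PFFs, so PEBs were 2.26 and PFFs 7.84 times the ES-like line. Without the most abundant other miRNA of each library it was 78274 in BLs, 184374 in the ES-like line, 205249 in PEBs and 581872 in PFFs. With only the highest precursor count of each name it was 187838, 249558 and 597956 in the ES-like line, PEBs and PFFs. TMM gave 95040, 190389 and 891889, and DESeq2's size factors 112058, 139571 and 775524. The rank was 5 in BL_1 and 2 in BL_2 with the highest precursor count, and 9, 8 and 4 in BL_1, BL_2 and the ES-like line with predicted loci ranked too, some of which may stand for the same reads.

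The ratio of PFFs to PEBs was 4.68 with TMM, 5.56 with DESeq2's size factors, 4.39 with upper-quartile scaling, 4.71 per other reads and 7.45 against the geometric mean, a scale chosen after seeing the data. In this order of scales, the ratio of PFFs to the ES-like line was 9.38, 6.92, 6.76, 5.98 and 9.11, and that of PEBs to the ES-like line 2.00, 1.25, 1.54, 1.27 and 1.22. PFFs over BLs came to 16.7 with TMM, 19.0 per other reads and 24.0 against the geometric mean, and to 7.52 with upper-quartile scaling. PEBs over BLs came to 1.71 with upper-quartile scaling. The ES-like line over BLs came to 1.78 with TMM, 1.87 with DESeq2's size factors and 1.11 with upper-quartile scaling. No ratio to the mean of BLs or between cultured cells changed direction.

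The 50 other miRNAs higher in PFFs than in PEBs became 83 per other reads, 83 with TMM, 99 with DESeq2's size factors and 28 at 4-fold, and the 53 higher than in the ES-like line became 88, 120, 100 and 32. The 160 lower than in the ES-like line became 88 with TMM. The 22 miRNAs of PFFs became 41 per other reads, 45 with TMM, 46 with DESeq2's size factors and 10 at 4-fold, where miR-21 was no longer among them. Of the 5 miRNAs most like miR-21, 2 stayed with Spearman's rho, 3 with Euclidean distance and 3 without BL_1. Medians of log2 ratios changed sign for 3 lists under scalings that shift all miRNAs alike. Against BLs, that of the fibrosis-restraining list was 0.31 per other reads and 0.13 with TMM, and that of the pluripotent list 0.66 and 0.47, where all others had 0.81 and 0.66. Muscle miRNAs went from -0.0037 to 0.67 and 0.63 against PEBs (0.00 in all others on both scales), and to 0.10 with TMM against the ES-like line (0.28 in all others).

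The fold change of miR-21 kept its direction under every alternative of both tests. With at least 2 libraries in each group, miR-21 never passed the threshold of 0.05 in adjusted p. For differentiated against pluripotent libraries, adjusted p went from 0.0987 without the ES-like line to 0.959 without BL_2 (both edgeR). For cultured cells against embryos it went from 0.063 (DESeq2) to 0.449 (edgeR). Such a failure to pass says little in this design. On simulated counts, edgeR recovered 0 of 200 at a log2 difference of 2 and a dispersion of 1 in both layouts. Calls over all miRNAs depended on single libraries. Without the ES-like line both comparisons are the same fit, BL_1 and BL_2 against PEBs and PFFs, in which 25 were called. In the second comparison, calls went from 1 to 116 as single cultured libraries were left out. DESeq2 called 16 in the first comparison and 100 in the second, and limma-voom 0 and 22. No paired analysis was possible, since the ES-like line, PEBs and PFFs had 1 library each. The lists of the 2-fold rule for cell types other than PFFs, the correlations between libraries and the likeness per other reads, which kept 4 of the 5, were also chosen after seeing the data, as was the sum without ssc-miR-199b-3p. Depth limits BL_1, where a miRNA with no read may still stand at up to 26.4 RPM (3 counts).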

Other observations

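ssc-miR-122 and miR-21 were close in reads in the ES-like line and PEBs and far apart in PFFs. For each read of ssc-miR-122 there were 1.53 reads of miR-21 in the ES-like line and 3.49 in PEBs, but 126370 in PFFs, where ssc-miR-122 had 112 reads. In the BL libraries the ratio was 21.8 in BL_1 and 83.6 in BL_2, on 201 and 2328 reads of ssc-miR-122. For ssc-miR-378, the second miRNA of both BL libraries, there were 0.270 and 0.545 reads of miR-21 in BL_1 and BL_2, 22.1 in the ES-like line, 40.5 in PEBs and 787 in PFFs.

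Muscle miRNAs were present beside miR-21 at low levels. The 6 of that list summed to 1231 RPM in BL_1, 2626 in BL_2, 403 in the ES-like line, 643 in PEBs and 1087 in PFFs. ssc-miR-1, of skeletal and heart muscle, made up most of this sum in both BL libraries, with 853 and 1968 RPM. It stood at 898 RPM in PFFs and 155 in the ES-like line. ssc-miR-206 and ssc-miR-208b, which mark skeletal and heart muscle, had no read in PFFs, where 0 reads allow up to 0.111 RPM.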
